A study of Caenorhabditis elegans with 4 samples.

Results

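The enzymes that pass adenosine, AMP, IMP and inosine between each other were followed through the tissues of Caenorhabditis elegans: adk-1, adah-1, ampd-1 and adss-1. They were taken by gene symbol, and each symbol has 1 row, so that they are 4 of the 46926 features counted. The study asked how the nucleoside transporters ENT-1 and ENT-2 link the soma and the germline, and measured RNA of single sorted nuclei with the 10x Chromium 3′ assay, in 1 library for each of 4 conditions, from whole worms at day 1 of adulthood. The ent-1KO;ent-2KD worms carried the ent-1 knockout and ate HT115 bacteria that make double-stranded RNA against ent-2. The ent-1KO and ent-2KO worms carried 1 knockout each and ate HT115 bacteria with the L4440 control vector, as did the N2 wild type (ctrl). The knockdown acts through the food and its extent can differ between tissues, and the ent-1KO;ent-2KD worms differ from ctrl in both the genotype and the bacteria.

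Adenosine is a nucleoside that cells take up through transporters or release from S-adenosylhomocysteine, and AMP is its phosphorylated form and a source of ATP and of RNA and DNA building blocks. Adenosine kinase (adk-1) adds a phosphate to adenosine and makes AMP, whereas adenosine deaminases, the family of adah-1, remove the amino group of adenosine and make inosine. AMP deaminase (ampd-1) removes the amino group of AMP and makes IMP. Adenylosuccinate synthetase (adss-1) leads the other way, from IMP to adenylosuccinate, which adenylosuccinate lyase (adsl-1) turns into AMP. ampd-1, adss-1 and adsl-1 together form the purine nucleotide cycle, which is best known from mammalian muscle.

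On build WBcel235, adk-1 (WBGene00011128) spans 11209309 to 11210831 on the minus strand of chromosome IV, and adah-1 (WBGene00015551) spans 7024211 to 7028147 on the plus strand of the same chromosome. ampd-1 (WBGene00016415) spans 5203322 to 5209801 on the plus strand of chromosome II, and adss-1 (WBGene00016509) spans 4818763 to 4823423 on the minus strand of chromosome V. All are protein-coding. The 3′ end of adk-1 overlaps the convergent gene R07H5.9 by 53 bases and that of ampd-1 overlaps C34F11.8 by 22 bases, both on the opposite strand, and the pseudogene C06G3.4 begins 25 bases past the end of adah-1 on its strand. The most counted neighbour was ccep-97, 99 bases from adss-1 on the same strand, with 2704 UMIs in ctrl. How many 3′ tags come from these borders was not examined.

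The files held 52147 nucleus barcodes, of which 46662 were kept after doublets were removed, with medians of 1392 to 1834 unique molecular identifiers (UMIs, tags of single transcript molecules) per nucleus. Between 43 and 61 barcodes occurred in both of any 2 libraries. The level of a gene is its UMI count over all nuclei of a group in a library, scaled to a total of 1000000 UMIs (CPM), and the range in parentheses after a value is its 95% exact Poisson interval, which covers counting error only. With 1 library per condition no test between conditions exists, and a ratio whose counting interval leaves out 0 on the log2 scale shows a difference between 2 libraries, not between 2 conditions. Nuclei were clustered without the 4 genes among the variable genes, and the 39 clusters were named from marker lists. Germline-like nuclei were 2897 in ent-1KO;ent-2KD, 7009 in ent-1KO, 6258 in ent-2KO and 5992 in ctrl, or 24.7%, 53.3%, 55.9% and 56.7% of the nuclei kept, so every level over all nuclei mixes tissues in other shares. The targeted gene ent-1 was counted at 14.5 CPM in ent-1KO;ent-2KD and 16.9 CPM in ent-1KO, against 139.97 CPM in ctrl, and ent-2 at 16.8 CPM in ent-1KO;ent-2KD and 9.46 CPM in ent-2KO, against 26.4 CPM in ctrl. In germline-like nuclei ent-2 had 9.52 (7.40 to 12.04) CPM in ent-1KO;ent-2KD and 2.54 (1.75 to 3.56) CPM in ent-2KO, against 11.3 (9.39 to 13.6) CPM in ctrl, so a lower level under the RNAi was not detectable there. 3′ tags show transcript level and not the extent of a deletion, and they do not allow levels to be compared between genes.

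The 4 genes were each highest in another group of nuclei. Over the 12 groups of nuclei described, adss-1 was highest in muscle-like nuclei in all 4 libraries, and ampd-1 was highest in sperm-like nuclei in all 4 libraries. adah-1 was highest in pharynx-like nuclei in ent-1KO, ent-2KO and ctrl and in a large unnamed cluster led by pqn-72 in ent-1KO;ent-2KD. adk-1 had the narrowest span between its highest and lowest group in each library, with its highest level in ribosomal-rich nuclei in ent-2KO and ctrl and in hypodermis-like nuclei in ent-1KO;ent-2KD and ent-1KO. That hypodermis-like rank rests on 1 small cluster, led by his-40: without it adk-1 had 149.8 (131 to 170.0) CPM in ent-1KO;ent-2KD and 165 (137 to 198) CPM in ent-1KO, below the ribosomal-rich nuclei, which then ranked first in all 4 libraries. The lowest group in all 4 libraries was germline-like nuclei for adah-1 and ampd-1 and muscle-like nuclei for adk-1.

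Read from the highest group down, few neighbours in these orders were apart by more than their counting intervals. For adss-1 only the step below muscle-like nuclei was, in ent-1KO;ent-2KD as in ctrl, and the groups from pharynx-like nuclei down formed a run of overlapping neighbours. For adah-1 in ent-1KO;ent-2KD the steps below the pqn-72 nuclei, the hypodermis-like nuclei and the muscle-like nuclei and the step above the germline-like nuclei were apart, and in ctrl those below the pharynx-like and the pqn-72 nuclei. For ampd-1 in ent-1KO;ent-2KD the steps below sperm-like and pqn-72 nuclei were apart, and in ctrl no pair of neighbours was. For adk-1 in ent-1KO;ent-2KD the hypodermis-like nuclei, with the his-40 cluster, and the ribosomal-rich nuclei overlapped and stood above the rest, and muscle-like nuclei stood below it, whereas in ctrl all neighbours overlapped.

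**Figure D1:**
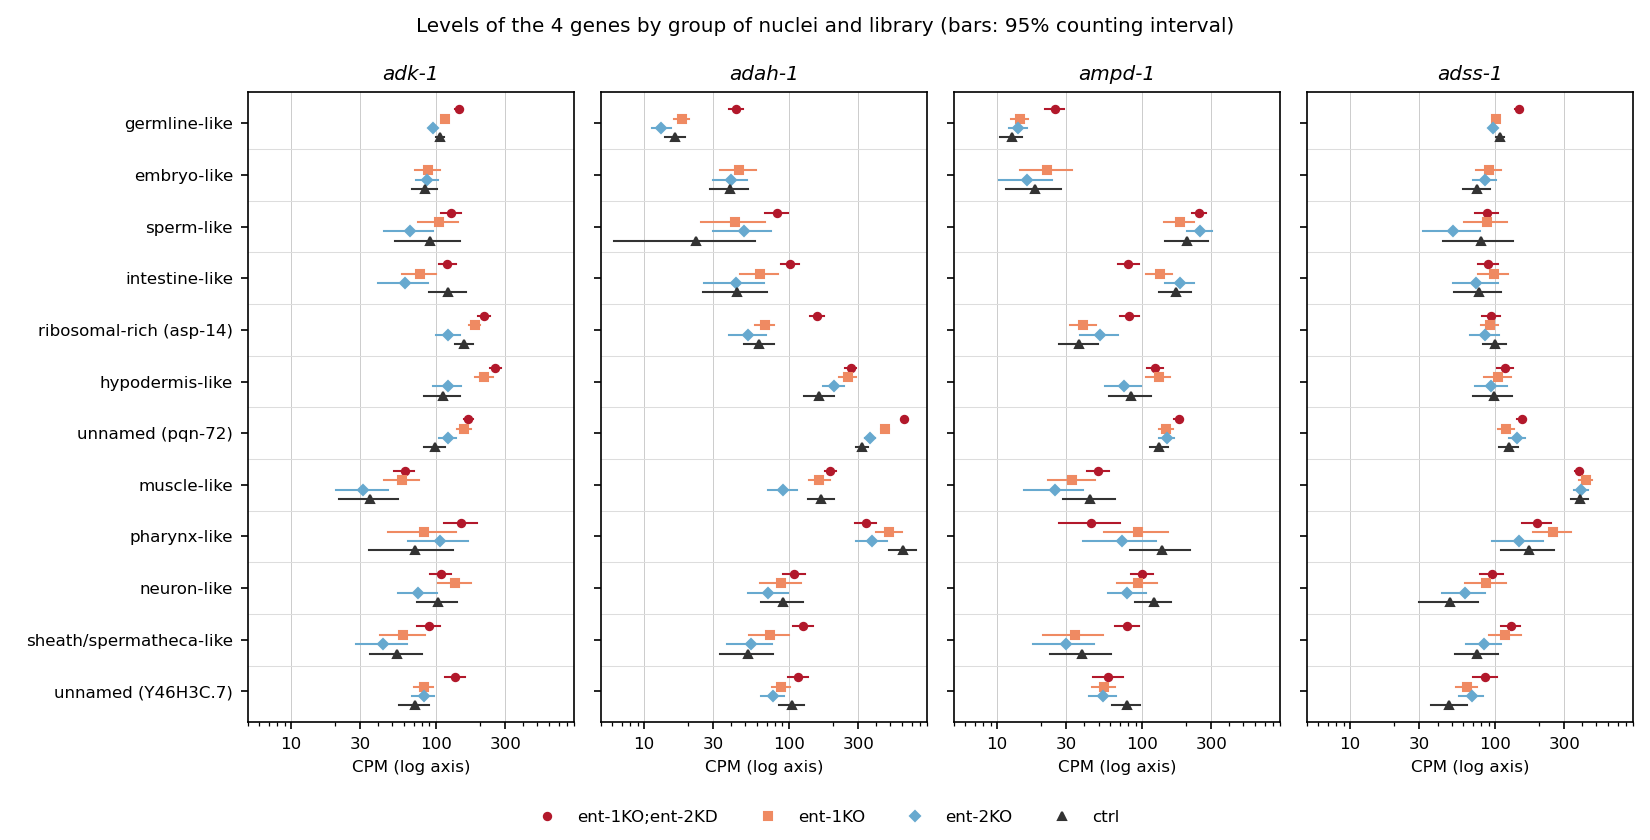
Levels of adk-1, adah-1, ampd-1 and adss-1 (CPM, log axis) in 12 groups of nuclei, with a point for each library that has at least 50 nuclei in the group and its 95% counting interval. adss-1 reached 380.0 to 422 CPM in muscle-like nuclei, and adah-1 lay between 13.2 and 42.9 CPM in germline-like nuclei against 319 to 622 CPM in the unnamed nuclei led by pqn-72.

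adk-1, the kinase that makes AMP from adenosine, was counted in every group. In ribosomal-rich nuclei, a cluster led by the aspartyl protease gene asp-14 in which ribosomal protein transcripts took a large share of UMIs, it had 214 (195 to 234.97) CPM in ent-1KO;ent-2KD, 184 (167 to 202) CPM in ent-1KO and 121 (99.4 to 146) CPM in ent-2KO, against 156 (134 to 180.3) CPM in ctrl. Germline-like nuclei had 144 (135 to 153) CPM in ent-1KO;ent-2KD, 116 (111 to 121) CPM in ent-1KO and 95.1 (89.8 to 101) CPM in ent-2KO, against 107 (101 to 113.2) CPM in ctrl. In intestine-like nuclei the levels were 119.8 (104.2 to 137) CPM in ent-1KO;ent-2KD, 77.4 (58.6 to 100.3) CPM in ent-1KO and 60.8 (40.1 to 88.5) CPM in ent-2KO, against 121 (88.9 to 161) CPM in ctrl, so that ent-1KO;ent-2KD and ctrl were alike within counting error and both single knockouts lay lower. In the ribosomal-rich nuclei, whose best marker list was also intestine, ent-2KO lay below ctrl but ent-1KO did not. Muscle-like nuclei had the lowest adk-1 of the 12 groups in each library, at 60.6 CPM in ent-1KO;ent-2KD, 58.3 CPM in ent-1KO and 31.5 CPM in ent-2KO, against 35.1 CPM in ctrl.

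Hypodermis-like nuclei divided adk-1 unevenly between their 5 clusters. One small cluster, led by the histone gene his-40 and holding the adult collagen gene col-19 among its leading genes, had 696 (615 to 784) CPM in ent-1KO;ent-2KD, 473 (365 to 602) CPM in ent-1KO and 118 (32.1 to 302) CPM in ent-2KO, against 150.1 (60.3 to 309) CPM in ctrl. Both libraries with the ent-1 knockout thus lay above the other 2, whose counting intervals overlap each other. The adk-1 UMIs were spread over 56 of 84 nuclei in ent-1KO;ent-2KD and 21 of 58 in ent-1KO, against 4 of 23 in ent-2KO and 4 of 18 in ctrl, and the most in 1 nucleus were 25, 15, 1 and 4 UMIs. The cluster did not hold like nuclei in the 4 libraries: his-40 itself had 6544 CPM in ent-1KO;ent-2KD and 3723 CPM in ent-1KO and was at 0 UMIs in ent-2KO and ctrl, and col-19 had 33041 and 21109 CPM in the first pair, against 2477 CPM in ent-2KO and 2595 CPM in ctrl. In the largest hypodermis-like cluster, led by vap-2, adk-1 had 130.3 (107 to 158) CPM in ent-1KO;ent-2KD, 133 (98.997 to 174) CPM in ent-1KO and 129.8 (93.1 to 176) CPM in ent-2KO, against 121.9 (81.7 to 175) CPM in ctrl, which overlap.

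adah-1, the adenosine deaminase family member, was high in the pqn-72 cluster. This cluster of 2809 nuclei stayed without a tissue name, because its median marker score for hypodermis, the best of all lists, was 0.306 with 13 of 28 hypodermis markers with at least 50 UMIs in all raised, and its other leading genes include grsp-2 and nlp-33. pqn-72 also led hypodermis-like clusters of 204 and 117 nuclei, and the first of these shares F16C3.2, grsp-2 and F18E3.12 with it. The name pqn-72 nuclei stands for the unnamed cluster only. There adah-1 had 622 (599.7 to 645) CPM in ent-1KO;ent-2KD, 462 (433 to 492) CPM in ent-1KO and 362 (334 to 391) CPM in ent-2KO, against 319 (291 to 348) CPM in ctrl, 4 levels whose intervals overlap for none but the ent-2KO and ctrl libraries. In pharynx-like nuclei the order was nearly turned round, at 338 (283 to 399) CPM in ent-1KO;ent-2KD, 492 (395 to 605) CPM in ent-1KO and 371 (287 to 472) CPM in ent-2KO, against 609.6 (487 to 754) CPM in ctrl, with 136, 89, 66 and 85 UMIs behind these values.

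Hypodermis-like nuclei followed, with adah-1 at 267 (244 to 290.2) CPM in ent-1KO;ent-2KD, 254 (222 to 291) CPM in ent-1KO and 204 (172 to 241) CPM in ent-2KO, against 161 (126 to 203) CPM in ctrl. Muscle-like nuclei had 192 (176 to 209) CPM in ent-1KO;ent-2KD, 162 (137 to 190.0) CPM in ent-1KO and 90.7 (71.0 to 114) CPM in ent-2KO, against 167 (135 to 204) CPM in ctrl. In muscle the ent-2KO library was apart from the other 3, which overlap. Intestine-like nuclei had 102 CPM in ent-1KO;ent-2KD, 62.5 CPM in ent-1KO and 42.8 CPM in ent-2KO, against 43.8 CPM in ctrl. Neuron-like nuclei had 108 CPM in ent-1KO;ent-2KD, 88.6 CPM in ent-1KO and 72.1 CPM in ent-2KO, against 90.5 CPM in ctrl. Germline-like nuclei had the lowest adah-1 of the 12 groups in each library, at 42.9 (38.3 to 47.9) CPM in ent-1KO;ent-2KD, 18.1 (16.1 to 20.3) CPM in ent-1KO and 13.2 (11.3 to 15.3) CPM in ent-2KO, against 16.3 (13.97 to 18.98) CPM in ctrl.

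ampd-1, the AMP deaminase, stood out in sperm-like nuclei, at 247 (221 to 275) CPM in ent-1KO;ent-2KD, 182 (142.5 to 229) CPM in ent-1KO and 252 (205 to 305) CPM in ent-2KO, against 204 (143 to 282) CPM in ctrl. All 4 intervals overlap. These nuclei form 2 clusters, and ampd-1 was high in only 1 of them: the one led by E03H12.5 had 412 (364 to 465) CPM in ent-1KO;ent-2KD, 419 (315 to 547) CPM in ent-1KO and 497 (396 to 615) CPM in ent-2KO, against 335 (229 to 473) CPM in ctrl. The one led by nspd-1 had 98.8 (77.1 to 125) CPM in ent-1KO;ent-2KD, 69.7 (41.9 to 109) CPM in ent-1KO and 79.1 (47.6 to 123) CPM in ent-2KO, against 49.4 (13.5 to 126) CPM in ctrl. The difference between the clusters was seen in every library, with no overlap of the intervals within a library. Intestine-like nuclei came next in ent-2KO and ctrl, and there ampd-1 had 80.3 (67.6 to 94.6) CPM in ent-1KO;ent-2KD, 132 (107 to 161) CPM in ent-1KO and 182 (145 to 227) CPM in ent-2KO, against 169.9 (131 to 216) CPM in ctrl. The ent-1KO;ent-2KD value lay below all others, of which the 3 overlap. The pqn-72 nuclei had 179 (167 to 191) CPM in ent-1KO;ent-2KD, 147 (131 to 164) CPM in ent-1KO and 148 (130.3 to 167) CPM in ent-2KO, against 131 (114 to 151) CPM in ctrl. Ribosomal-rich nuclei had 81.5 (69.8 to 94.7) CPM in ent-1KO;ent-2KD, 39.4 (31.8 to 48.2) CPM in ent-1KO and 51.1 (37.4 to 68.2) CPM in ent-2KO, against 36.7 (26.5 to 49.4) CPM in ctrl, and there ent-1KO;ent-2KD stood above the other 3 libraries. Within the germline, ampd-1 was highest in the oocyte-like cluster led by Y9D1A.2, at 51.1 (36.6 to 69.3) CPM in ent-1KO;ent-2KD, 72.8 (57.6 to 90.7) CPM in ent-1KO and 90.2 (69.9 to 115) CPM in ent-2KO, against 73.4 (52.0 to 101) CPM in ctrl. The largest meiosis-like cluster had 19.2 (14.7 to 24.6) CPM in ent-1KO;ent-2KD, 8.86 (6.78 to 11.4) CPM in ent-1KO and 6.96 (5.08 to 9.31) CPM in ent-2KO, against 7.57 (5.43 to 10.3) CPM in ctrl.

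adss-1, which opens the path from IMP back to AMP, had its highest level where muscle markers define the nuclei. In muscle-like nuclei it had 380.0 (357 to 404) CPM in ent-1KO;ent-2KD, 422 (381 to 467) CPM in ent-1KO and 393 (351 to 439) CPM in ent-2KO, against 384 (335 to 439) CPM in ctrl, and the 4 intervals overlap. The clusters led by cpna-2 and by ttn-1 were both high, at 399 (378 to 419) and 441 (399 to 487) CPM over all libraries, and the third, led by C53B7.3, had 199.7 (158 to 249) CPM. Pharynx-like nuclei, whose muscle is a separate cell type, followed at 194 (153 to 242) CPM in ent-1KO;ent-2KD, 249 (181 to 333) CPM in ent-1KO and 146 (95.5 to 214) CPM in ent-2KO, against 172 (110.3 to 256) CPM in ctrl. Germline-like nuclei had 145 (136 to 154) CPM in ent-1KO;ent-2KD, 102 (96.7 to 107) CPM in ent-1KO and 96.9 (91.6 to 102) CPM in ent-2KO, against 108 (102 to 115) CPM in ctrl. The lowest levels in ctrl were those of the unnamed nuclei led by Y46H3C.7, at 48.4 CPM, and of neuron-like nuclei, at 48.9 CPM, whose intervals overlap. The Y46H3C.7 cluster reached no tissue score, but 19 of 22 oocyte stage markers were raised in it, at a median of 0.991. Its leading genes Y46H3C.7 and Y9D1A.2 also lead an oocyte-like cluster. Its nuclei were counted outside the germline-like class and may belong to the germline. ampd-1, of the same cycle, had 25.2 to 49.5 CPM in muscle-like nuclei.

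**Figure D2:**
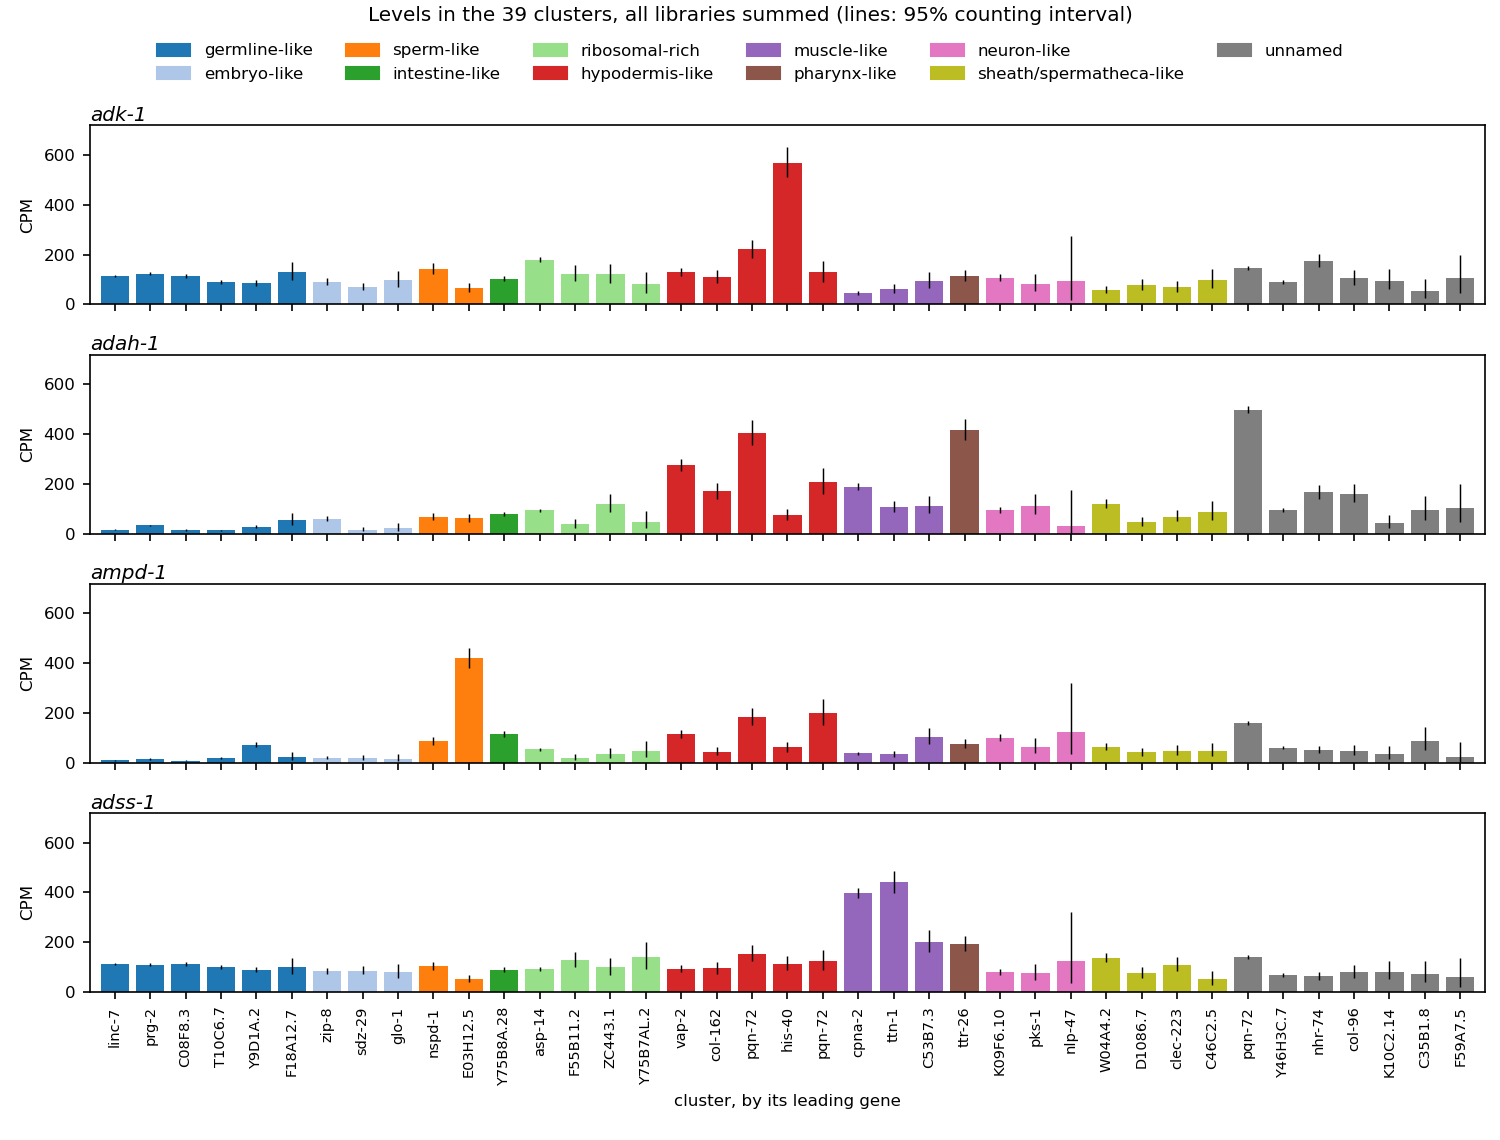
Levels (CPM, linear axis from 0) of the 4 genes in each of the 39 clusters with the 4 libraries summed, ordered by class and named below by the leading gene; lines are 95% counting intervals. Single clusters stand out: his-40 for adk-1 at 571 (512 to 634) CPM, which comes from ent-1KO;ent-2KD and ent-1KO and not from ent-2KO and ctrl with 118 and 150.1 CPM, the unnamed pqn-72 cluster for adah-1 at 498 (484 to 512) CPM, E03H12.5 for ampd-1 at 419.8 (381 to 461) CPM, and ttn-1 and cpna-2 for adss-1. Hypodermis-like clusters are also led by pqn-72.

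The share of nuclei with a UMI of a gene followed its level in the groups where it was high and low. Among pqn-72 nuclei adah-1 was found in 74.4% in ent-1KO;ent-2KD and 56.6% in ctrl. With each nucleus thinned to 500 UMIs the shares were 26.4% (24.1 to 28.8) in ent-1KO;ent-2KD and 15.3% (11.8 to 19.3) in ctrl, where parentheses hold 95% exact binomial intervals for counting error, and the median depths were 2962 and 3300 UMIs. No group of nuclei is known to lack these enzymes, and the group with the lowest level serves as the comparison. For adah-1 that is germline-like nuclei, with 9.49% in ent-1KO;ent-2KD and 2.67% in ctrl at median depths of 2113 and 1541 UMIs, and 2.66% (2.10 to 3.31) and 1.18% (0.927 to 1.49) after thinning. adss-1 was found in 55.6% of muscle-like nuclei in ent-1KO;ent-2KD and 48.2% in ctrl, and after thinning in 18.3% (16.1 to 20.8) and 15.7% (11.7 to 20.5), which overlap. Their median depths were 2274 and 1859 UMIs. In the Y46H3C.7 nuclei, at medians of 3570 and 3412 UMIs, adss-1 was found after thinning in 2.86% (1.24 to 5.55) in ent-1KO;ent-2KD and 2.64% (1.07 to 5.37) in ctrl. ampd-1 was found in 35.0% of sperm-like nuclei in ent-1KO;ent-2KD and 21.7% in ctrl, after thinning in 12.1% (9.40 to 15.4) and 9.64% (4.25 to 18.1), against 1.24% (0.872 to 1.72) and 0.634% (0.449 to 0.869) of germline-like nuclei in the same libraries. Sperm-like nuclei had median depths of 1934 UMIs in ent-1KO;ent-2KD and 1376 in ctrl.

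The main comparison asked how the 4 genes differed in germline-like nuclei between ent-1KO worms under ent-2 RNAi and ctrl. Of the 4 genes, adah-1 and ampd-1 were at least 0.5 higher on the log2 scale in ent-1KO;ent-2KD than in ctrl, and adk-1 and adss-1 were higher by less. Summed over all germline-like nuclei, the counts of adah-1 and ampd-1 did not exceed an estimate of free RNA, given further on. The log2 ratios, with 0.5 UMIs added to each count and a counting interval, were 1.39 (1.12 to 1.67) for adah-1 on 311 UMIs in ent-1KO;ent-2KD and 170 in ctrl and 0.99 (0.66 to 1.32) for ampd-1 on 181 UMIs in ent-1KO;ent-2KD and 131 in ctrl. They were 0.43 (0.31 to 0.55) for adk-1 on 1042 UMIs in ent-1KO;ent-2KD and 1111 in ctrl and 0.42 (0.30 to 0.55) for adss-1 on 1051 UMIs in ent-1KO;ent-2KD and 1124 in ctrl. All 4 genes were above the median log2 ratio of 0.04 over the 6161 genes with at least 20 CPM in 1 of both libraries and at least 50 UMIs over both, of which 20.3% were at least 0.5 higher. The 3 libraries other than ent-1KO;ent-2KD lay close together, between 13.2 and 18.1 CPM for adah-1 and between 12.6 and 14.3 CPM for ampd-1.

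Both adah-1 and ampd-1 had their lowest level of all groups in germline-like nuclei, and transcripts of somatic tissues were more abundant in the same germline-like nuclei. The intestine markers summed to 9571 CPM in ent-1KO;ent-2KD against 6664 CPM in ctrl and were higher for 23 of 27 markers. The muscle markers summed to 1648 against 1226 CPM (20 of 25 higher), the hypodermis markers to 2845 against 2306 CPM (19 of 29 higher) and the neuron markers to 796 against 646 CPM (24 of 30 higher), in the same order of libraries, with all markers of a list counted. The intestine markers summed higher in ent-1KO;ent-2KD than in ctrl in each of the other groups compared as well. Of these markers, wrt-2, wrt-10 and tph-1 were at 0 UMIs in ent-1KO;ent-2KD, and ftn-1 and tph-1 in ctrl. Outside the germline-like nuclei adah-1 had 267 CPM in ent-1KO;ent-2KD, 165 CPM in ent-1KO and 129 CPM in ent-2KO, against 135 CPM in ctrl, and ampd-1 had 112.9 CPM in ent-1KO;ent-2KD, 76.4 CPM in ent-1KO and 75.3 CPM in ent-2KO, against 77.1 CPM in ctrl. These levels mix tissues in unlike shares. Of 8847 such nuclei in ent-1KO;ent-2KD, 1428 were pqn-72 and 10 embryo-like nuclei, and of 4585 in ctrl, 380 and 934. When free RNA was subtracted with the profile of the whole library, at a share of 37.4% of UMIs in ent-1KO;ent-2KD and 52.2% in ctrl set from these somatic markers, 0 UMIs of adah-1 and 0 of ampd-1 were left in either library, against 647 in ent-1KO;ent-2KD and 555 in ctrl for adk-1 and 645 and 533 for adss-1. The share counts any transcription of those markers in the germline as free RNA. At this estimate the germline counts of adah-1 and ampd-1 did not exceed the background of free RNA. The estimate lay above their counts in both libraries, so it was too high for these genes. Where it exceeded a count, here and below, the UMIs left were set to 0. How much of the adah-1 and ampd-1 counts is free RNA was thus not determined.

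The stages of the germline were not alike, though no difference between stages can be tested with 1 library each. In oocyte-like clusters the log2 ratio of ent-1KO;ent-2KD to ctrl was 0.76 (0.52 to 1.00) for adk-1, 1.28 (0.72 to 1.89) for adah-1, 0.49 (-0.01 to 0.99) for ampd-1 and 0.29 (0.05 to 0.53) for adss-1, with 2 of the 4 at or above 0.5 beside 22.6% of all genes. In meiosis-like clusters it was 0.33 (0.18 to 0.48) for adk-1, 1.46 (1.14 to 1.79) for adah-1, 1.23 (0.78 to 1.70) for ampd-1 and 0.51 (0.37 to 0.66) for adss-1, with 3 of the 4 at or above 0.5 beside 20.6% of all genes. In the oocyte-like clusters adk-1 had 143 CPM in ent-1KO;ent-2KD, 102 CPM in ent-1KO and 79.9 CPM in ent-2KO, against 84.7 CPM in ctrl. In the meiosis-like clusters it had 144 CPM in ent-1KO;ent-2KD, 122.3 CPM in ent-1KO and 101 CPM in ent-2KO, against 114 CPM in ctrl. The intervals of the 2 stages overlapped in ent-1KO;ent-2KD and did not overlap in the other 3 libraries.

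**Figure D3:**
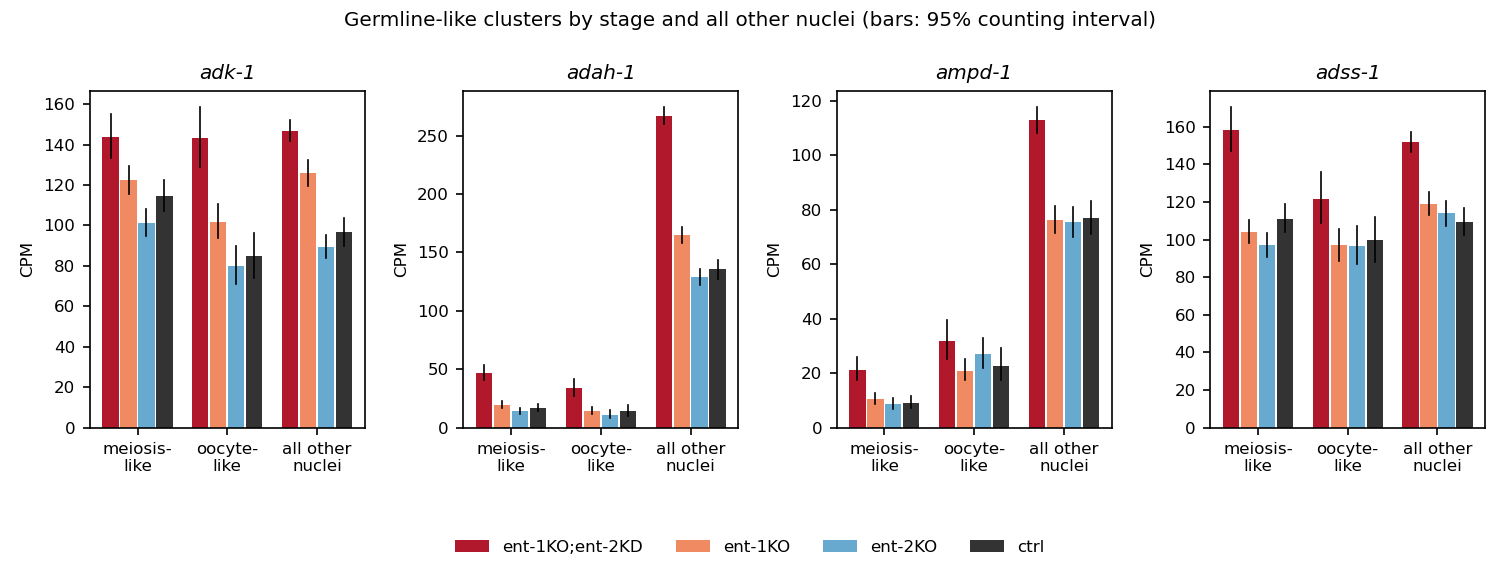
Levels (CPM, bars from 0, 95% counting intervals) of the 4 genes in meiosis-like and oocyte-like germline clusters and in all other nuclei, for each library. adah-1 had 46.9 CPM in meiosis-like clusters of ent-1KO;ent-2KD against 16.997 CPM in ctrl, and 267 against 135 CPM in all other nuclei. The other nuclei mix tissues in unlike shares: ent-1KO;ent-2KD held 1428 pqn-72 and 10 embryo-like nuclei, against 380 and 934 in ctrl.

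Set against the ent-1KO library, which shares the knockout and differs in the bacteria, the germline-like log2 ratios of ent-1KO;ent-2KD were 1.24 (1.01 to 1.48) for adah-1, 0.81 (0.52 to 1.09) for ampd-1, 0.51 (0.40 to 0.63) for adss-1 and 0.31 (0.20 to 0.42) for adk-1. Here 3 of the 4 genes were at least 0.5 higher, beside 20.0% of all genes. In the single knockouts 3.57% of genes in ent-1KO and 2.36% in ent-2KO were at least 0.5 higher or lower than in ctrl, and neither adk-1 nor adss-1, the 2 members that passed the minimum, was among them. The log2 ratios were 0.12 (0.01 to 0.22) for adk-1 and -0.09 (-0.20 to 0.02) for adss-1 in ent-1KO, and -0.17 (-0.29 to -0.05) and -0.16 (-0.27 to -0.04) in ent-2KO. All comparisons with ctrl share its library.

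ampd-1 lay on opposite sides of ctrl in the 2 groups of nuclei with the most intestine marker transcripts. In intestine-like nuclei it was lower in ent-1KO;ent-2KD, with a log2 ratio to ctrl of -1.09 (-1.51 to -0.64) on 66 UMIs in ctrl. adah-1 was higher, at 1.18 (0.50 to 2.03) on 180 UMIs in ent-1KO;ent-2KD and 17 in ctrl, but after subtraction of free RNA 0 and 3.05 of these UMIs were left, so its counts there did not exceed the free RNA estimate in ent-1KO;ent-2KD. Outside the germline-like nuclei the share of free RNA was set from the germline markers. adk-1, at -0.03 (-0.48 to 0.47), and adss-1, at 0.19 (-0.36 to 0.82), had intervals that hold 0. Of all genes past the minimum, 27.4% were at least 0.5 lower and 18.2% at least 0.5 higher, around a median of -0.13. In ribosomal-rich nuclei ampd-1 was higher, at 1.14 (0.66 to 1.67) on 172 UMIs in ent-1KO;ent-2KD and 43 in ctrl, as was adah-1, at 1.32 (0.96 to 1.71), while adk-1 had 0.46 (0.21 to 0.71) and adss-1 -0.10 (-0.43 to 0.25). These 2 of 4 genes stand beside 17.4% of all genes, whose median was -0.58. With no limit on ribosomal protein transcripts the ribosomal-rich cluster joined the intestine-like class, and the ampd-1 log2 ratio of the class became 0.21. Germline markers summed to 3508 CPM in intestine-like nuclei of ent-1KO;ent-2KD against 6969 CPM in ctrl, and to 4931 against 12064 CPM in ribosomal-rich nuclei. The intestine markers themselves summed to 27961 against 26676 CPM in intestine-like nuclei and to 45708 against 29817 CPM in ribosomal-rich nuclei. The part of either in these ratios was not tested.

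In the pqn-72 nuclei adah-1 and adk-1 were higher in ent-1KO;ent-2KD than in ctrl, with log2 ratios of 0.96 (0.83 to 1.11) and 0.76 (0.51 to 1.03), and ampd-1 and adss-1 had 0.44 (0.22 to 0.68) and 0.29 (0.06 to 0.53). Thus 2 of the 4 genes were at least 0.5 higher beside 19.7% of all genes, and the median gene lay at -0.47. The hypodermis markers summed to 34140 CPM in ent-1KO;ent-2KD against 34393 CPM in ctrl, the germline markers to 1955 against 7122 CPM and the intestine markers to 8834 against 4354 CPM. In hypodermis-like nuclei the log2 ratios were 1.19 (0.78 to 1.66) for adk-1, 0.72 (0.37 to 1.10) for adah-1, 0.54 (0.05 to 1.09) for ampd-1 and 0.25 (-0.21 to 0.77) for adss-1, with 3 of 4 genes at least 0.5 higher beside 16.1% of all genes and a median of -0.31. The adk-1 value rests on the his-40 cluster and on the mix of clusters: it was 0.48 without that cluster, 0.21 with the cluster shares of ctrl in both libraries and 0.07 with clusters made without integration. The hypodermis-like nuclei of ctrl also held more pharynx and muscle markers, which summed to 111 and 2014 CPM in ent-1KO;ent-2KD against 1122 and 3564 CPM in ctrl, and the part of these in the ratios was not tested.

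In muscle-like nuclei adss-1, which was highest in this group, had a log2 ratio of -0.02 (-0.23 to 0.20), so the 2 libraries differed by less than the counting error. adk-1, low in muscle, was at 0.76 (0.11 to 1.53), the only 1 of the 4 at least 0.5 higher, beside 15.2% of all genes, whose median was -0.11. adah-1 and ampd-1 had 0.20 (-0.11 to 0.53) and 0.15 (-0.45 to 0.85), and adah-1 was at -0.49 with free RNA subtracted. The intestine markers summed to 12497 against 5695 CPM in these nuclei, and after subtraction of free RNA no adk-1 UMI was left in muscle-like nuclei of either library. In pharynx-like nuclei adah-1 was lower in ent-1KO;ent-2KD, at -0.86 (-1.25 to -0.44), beside 27.2% of all genes at least 0.5 lower, and adk-1 was higher, at 1.00 (0.08 to 2.19) on 60 and 10 UMIs, beside 20.8% at least 0.5 higher. The median of all genes there was -0.15. adss-1 had 0.15 (-0.51 to 0.90), and ampd-1, with 18 UMIs in ent-1KO;ent-2KD and 19 in ctrl, did not pass the minimum. In the same nuclei the intestine markers summed to 20519 CPM in ent-1KO;ent-2KD against 10048 CPM in ctrl and the pharynx markers to 7700 against 3966 CPM. Their part in the adah-1 ratio was not tested.

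In neuron-like nuclei 1 of the 4 genes, adss-1, was at least 0.5 higher, at 0.93 (0.27 to 1.72) on 20 UMIs in ctrl, beside 16.3% of all genes, whose median was -0.20. That value was 2.47 when only nuclei with at least 1000 UMIs were kept. At free RNA shares, estimated from the germline markers, of 62.1% in ent-1KO;ent-2KD and 56.7% in ctrl, 2.52 and 0 adss-1 UMIs were left after subtraction. Nearly all of these UMIs thus lay within the free RNA estimate. The other intervals hold 0, at 0.05 (-0.44 to 0.60) for adk-1, 0.25 (-0.27 to 0.82) for adah-1 and -0.27 (-0.75 to 0.24) for ampd-1, which was at -0.94 with free RNA subtracted. The gonad sheath and spermatheca-like nuclei, of cell types that enclose the germline, were the only group of those compared in which all 4 genes were at least 0.5 higher: adah-1 had 1.25 (0.66 to 1.96), ampd-1 0.99 (0.30 to 1.83), adss-1 0.76 (0.24 to 1.34) and adk-1 0.70 (0.10 to 1.41), beside 20.3% of all genes. The ctrl counts behind them were 24, 18, 35 and 25 UMIs. The intestine markers summed to 16095 CPM in these nuclei of ent-1KO;ent-2KD against 6885 CPM in ctrl, and to 24433 against 13149 CPM in neuron-like nuclei, and their part in the ratios was not tested. In sperm-like nuclei, with intestine markers at 12914 against 7335 CPM, adah-1 had 1.70 (0.46 to 3.76) on 112 and 4 UMIs and was the 1 gene at least 0.5 higher beside 23.6% of all genes, and ampd-1, highest in these nuclei of all groups, had 0.26 (-0.22 to 0.81). In the unnamed nuclei led by Y46H3C.7, adk-1 had 0.92 (0.52 to 1.35), adss-1 0.81 (0.32 to 1.34), adah-1 0.14 (-0.23 to 0.52) and ampd-1 -0.41 (-0.89 to 0.06), with 2 of 4 at least 0.5 higher beside 26.9% of all genes. Embryo-like nuclei numbered 10 in ent-1KO;ent-2KD and were not compared.

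**Figure D4:**
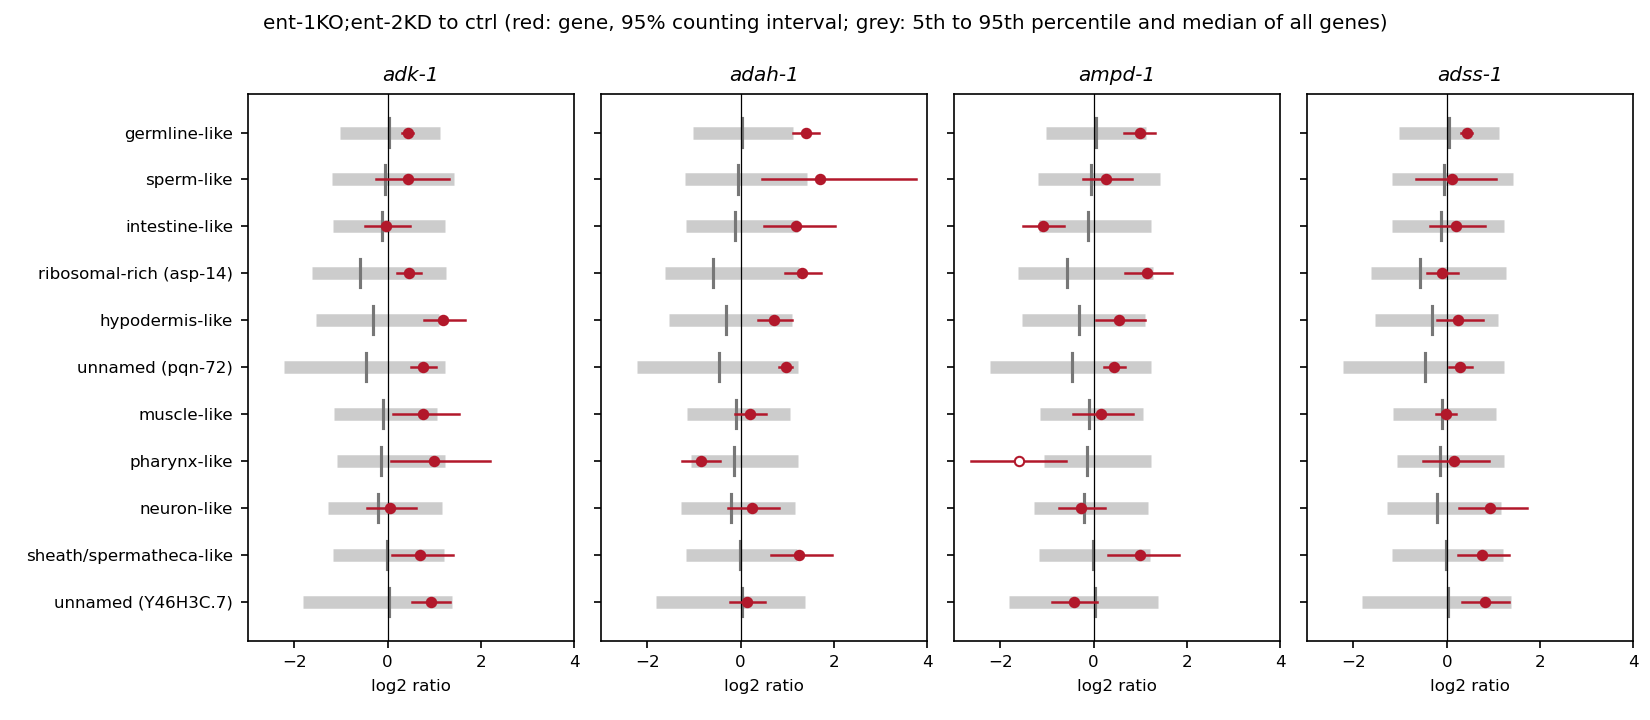
Log2 ratio of ent-1KO;ent-2KD to ctrl for each gene in 11 groups of nuclei (red point, open where the gene did not pass the minimum; red line, 95% counting interval) over the 5th to 95th percentile of all genes in the group (grey bar) and their median (dark tick). ampd-1 lay at -1.09 in intestine-like and 1.14 in ribosomal-rich nuclei, and adah-1 at -0.86 in pharynx-like and 1.39 in germline-like nuclei. The intestine-like ampd-1 value became 0.21 when ribosomal-rich clusters joined the class. No adah-1 UMI of the germline-like nuclei was left after subtraction of free RNA, at an estimate that exceeded the counts.

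The single knockouts also lay beyond counting error from ctrl in several other groups of nuclei, and each comparison shares the ctrl library. All such ratios at least 0.5 higher or lower that passed the minimum are given. In intestine-like nuclei adk-1 was lower in both, with log2 ratios of -0.65 (-1.23 to -0.05) in ent-1KO and -0.98 (-1.73 to -0.28) in ent-2KO, beside 11.5% and 11.4% of all genes at least 0.5 lower. In ribosomal-rich nuclei, whose best marker list was also intestine, adk-1 had 0.24 (-0.01 to 0.50) in ent-1KO and -0.36 (-0.72 to -0.02) in ent-2KO. In hypodermis-like nuclei of ent-1KO, adk-1 was at 0.94 (0.49 to 1.43), adah-1 at 0.65 (0.27 to 1.07) and ampd-1 at 0.62 (0.08 to 1.21), and in ent-2KO the same genes were at 0.11 (-0.41 to 0.66), 0.34 (-0.08 to 0.77) and -0.17 (-0.80 to 0.49). Of all genes there, 9.54% were at least 0.5 higher in ent-1KO. Without the his-40 cluster adk-1 had 165 (137 to 198) CPM in ent-1KO against 107 (76.9 to 144) CPM in ctrl, whose intervals overlap. In the pqn-72 nuclei of ent-1KO, adk-1 was at 0.67 (0.39 to 0.96) and adah-1 at 0.54 (0.38 to 0.70). Of all genes in these nuclei, 11.02% were at least 0.5 higher, around a median of -0.32. adah-1 in ent-2KO was at -0.88 (-1.34 to -0.42) in muscle-like and -0.71 (-1.20 to -0.23) in pharynx-like nuclei. In the same groups 8.76% and 17.3% of all genes were at least 0.5 lower. In neuron-like nuclei of ent-1KO, adss-1 was at 0.803 (0.008 to 1.68), beside 13.1% of all genes higher. It was at 0.63 (0.025 to 1.28) in gonad sheath and spermatheca-like nuclei of ent-1KO, beside 13.98% higher. The ctrl counts were 20 and 35 UMIs. Y46H3C.7 nuclei had ampd-1 at -0.52 (-0.94 to -0.09) in ent-1KO and -0.53 (-0.99 to -0.07) in ent-2KO, beside 8.2% and 6.52% lower. There adss-1 was at 0.502 (0.012 to 1.03) in ent-2KO, beside 3.23% higher. The ent-1KO;ent-2KD library set against ent-1KO gave 0.06 (-0.16 to 0.30) for adah-1 and 0.25 (0.01 to 0.51) for adk-1 in hypodermis-like nuclei, and 0.43 (0.32 to 0.54) and 0.09 (-0.09 to 0.29) in pqn-72 nuclei.

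Over 51 sums of a group of nuclei in a library, with at least 50 nuclei in each, the genes whose log2(CPM + 10) was most like that of adk-1 were vha-2 (r = 0.86), vha-8 (r = 0.82), vha-13 (r = 0.79), vha-10 (r = 0.77), C23G10.2 (r = 0.76), of which the first 4 encode subunits of the vacuolar proton pump. For adah-1 they were dmd-7 (r = 0.87), nhr-105 (r = 0.87), F47B8.3 (r = 0.87), frm-2 (r = 0.86), lin-29 (r = 0.86), for ampd-1 apm-1 (r = 0.74), C55B7.3 (r = 0.74), T13F3.8 (r = 0.72), M01H9.10 (r = 0.72), rfip-1 (r = 0.72), and for adss-1 anmt-3 (r = 0.87), ZK809.8 (r = 0.85), cex-2 (r = 0.84), spk-1 (r = 0.84), C25E10.8 (r = 0.84). These are the highest of 14977 genes, and sums of the same library or group are not independent. Among the 4 genes themselves Pearson r was 0.19 for adk-1 with adah-1, 0.19 for adk-1 with ampd-1, -0.25 for adk-1 with adss-1, 0.50 for adah-1 with ampd-1, 0.42 for adah-1 with adss-1 and -0.18 for ampd-1 with adss-1. No pair was as alike as each gene was to its 5 nearest genes. Those are by choice the highest of 14977, so this does not show how unlike the members are.

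Of 21 other genes of purine metabolism, 10 passed the minimum in germline-like nuclei, and 6 of these were at least 0.5 higher and 0 lower in ent-1KO;ent-2KD than in ctrl, around a median of 0.66 beside 0.04 for all genes, of which 20.3% were at least 0.5 higher and 17.01% lower. The substrate side of the 4 genes was among them: ahcy-1, which frees adenosine from S-adenosylhomocysteine, had 416 CPM in ent-1KO;ent-2KD against 219 CPM in ctrl at a log2 ratio of 0.92 (0.84 to 1.00), and sams-1, which makes S-adenosylmethionine, had 137 CPM in ent-1KO;ent-2KD against 69.6 CPM in ctrl, at 0.98 (0.84 to 1.12). adsl-1, the partner of adss-1, had 91.0 CPM in ent-1KO;ent-2KD against 56.6 CPM in ctrl, at 0.69 (0.52 to 0.85). Among enzymes that join bases to ribose phosphate, hprt-1 had 0.75 (0.56 to 0.93) and T19B4.3 0.95 (0.72 to 1.18). The adenylate kinase gene let-754, which exchanges phosphate between AMP and ATP, had 0.21 (0.07 to 0.36), and aak-1, a catalytic subunit of the AMP-activated protein kinase, had -0.12 (-0.23 to -0.02). In intestine-like nuclei 19 of the 21 passed the minimum, 3 at least 0.5 higher and 3 lower, around a median of -0.00367 beside -0.13 for all genes, of which 18.2% were higher and 27.4% lower, so these shares lay near or below those of all genes. There pnp-1, the purine nucleoside phosphorylase that splits inosine, had 159 CPM in ent-1KO;ent-2KD against 232 CPM in ctrl, at -0.54 (-0.89 to -0.18), while ahcy-1 had 0.42 (0.16 to 0.69) and adsl-1 -0.31 (-1.09 to 0.62). The list was chosen with results of these data known, and the somatic markers were more abundant in the same germline-like nuclei, as given with the members, and their part was not tested. Free RNA was not subtracted for these 21 genes. Of them sams-1 had 1183 CPM in hypodermis-like nuclei of ent-1KO;ent-2KD against 486 CPM in ctrl, above its germline-like levels.

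**Figure D5:**
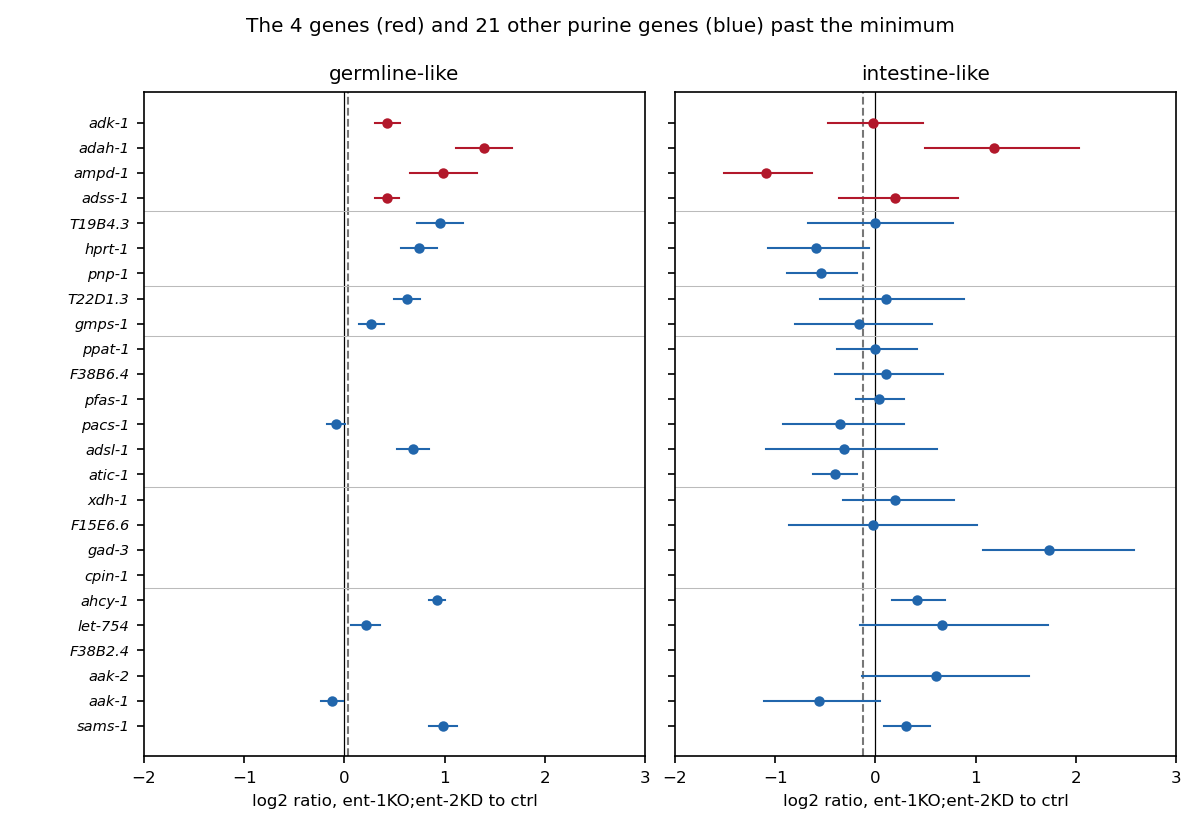
Log2 ratio of ent-1KO;ent-2KD to ctrl with 95% counting intervals for the 4 genes (red) and 21 other purine genes (blue, grouped by list) that passed the minimum, in germline-like and intestine-like nuclei; the dashed line is the median of all genes. ahcy-1 lay at 0.92 in germline-like and 0.42 in intestine-like nuclei.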

How the data were processed

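RNA of single nuclei was measured in 4 libraries, 1 per condition. The authors aligned reads with Cell Ranger (version 6.0 in their notes, 6.1.2 in the matrix headers) and deposited filtered matrices of raw UMI counts per gene and nucleus, which were used without change. Whether intronic reads were counted is not given in the sources used here. Libraries held 21009254 to 32714922 UMIs and 11666 to 14935 barcodes, each with at least 500 UMIs. The nuclei with the highest Scrublet scores were removed as doublets (0.8% of the library per 1000 nuclei; scanpy 1.11.5). Nuclei were clustered with Seurat 5.3.0 on R 4.3.3 (2000 variable genes without the 4 members, canonical correlation integration, 30 dimensions, Louvain resolution 0.8). A cluster took the name of a tissue when the median log2 ratio of its markers to the other clusters was at least 0.5 and at least 3 were raised; clusters with over 1.5 times the usual share of ribosomal protein transcripts were kept apart. Rebuilt names can differ from those of the study, and the germline stages and the 12 groups described were set after the clusters had been seen.

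UMIs were summed per group and library with Python 3.11.15. Log2 ratios of CPM had 0.5 UMIs added to each count and conditional binomial intervals; genes passed with at least 20 CPM in 1 library and 50 UMIs over both, and 0.5 on the log2 scale was the limit for higher or lower. The code was tested on simulated counts. With 1 library per condition no test was made, nor a paired one. Named are the 4 members, 21 purine genes, the 5 genes most like each member and the 2 targeted genes; leading genes only label clusters. Members and lists were chosen with earlier results of these data known. Alternatives covered doublets, depth, integration, resolution, naming, scaling, weighting, free RNA and the mix of clusters. No sequence is printed, since none was used here.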

Additional observations from a re-analysis of the deposited data

Results flagged for a closer look

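With 1 library per condition, none of these differences between groups of nuclei was tested. They are listed because the same comparison gave, for 1 gene, a log2 ratio of at least 0.5 above 0 in one group and at least 0.5 below 0 in another, each past the minimum of 20 CPM in 1 library and 50 UMIs over both and with a counting interval that does not hold 0, and the lowest and the highest such group are given. In ent-1KO;ent-2KD to ctrl, ampd-1 had -1.09 (-1.51 to -0.64) in intestine-like nuclei and 1.23 (0.78 to 1.70) in meiosis-like germline clusters, and adah-1 had -0.86 (-1.25 to -0.44) in pharynx-like and 1.70 (0.46 to 3.76) in sperm-like nuclei. ampd-1 in pharynx-like nuclei, at -1.61 (-2.62 to -0.60) to ctrl and -1.07 (-2.11 to -0.03) to ent-1KO, did not pass the minimum. The sperm value rests on 4 UMIs in ctrl. With no ribosomal protein limit the intestine-like ampd-1 value to ctrl became 0.21. In all germline-like nuclei no adah-1 or ampd-1 UMI was left after subtraction of free RNA, at an estimate that exceeded the counts. Against ent-1KO, the ent-1KO;ent-2KD library gave -0.72 (-1.10 to -0.33) in intestine-like nuclei and 1.17 (0.49 to 1.99) in gonad sheath and spermatheca-like nuclei for ampd-1, and -0.54 (-0.94 to -0.14) in pharynx-like nuclei and 1.27 (0.98 to 1.55) in meiosis-like clusters for adah-1. In ent-1KO to ctrl, adk-1 had -0.65 (-1.23 to -0.05) in intestine-like and 0.94 (0.49 to 1.43) in hypodermis-like nuclei, and ampd-1 had -0.52 (-0.94 to -0.09) in the unnamed nuclei led by Y46H3C.7 and 0.62 (0.08 to 1.21) in hypodermis-like nuclei. In ribosomal-rich nuclei, whose best marker list was also intestine, adk-1 had 0.24 (-0.01 to 0.50). Hypodermis-like nuclei without the his-40 cluster had 165 (137 to 198) CPM of adk-1 in ent-1KO against 107 (76.9 to 144) CPM in ctrl. adss-1 met this rule in none of the 4 comparisons.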

How the results depend on the processing

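Of the 50 values that the alternatives gave for the germline-like log2 ratios of ent-1KO;ent-2KD to ctrl, 47 moved by less than the counting interval and none changed direction. With clusters made without integration, adah-1 was at 1.91, ampd-1 at 1.74 and adss-1 at 0.12, and the cause was not tested. The other alternatives gave 1.23 to 1.51 for adah-1, 0.85 to 1.22 for ampd-1, 0.33 to 0.45 for adk-1 and 0.35 to 0.51 for adss-1, but subtraction of free RNA gave none for adah-1 and ampd-1. Of the other 181 log2 ratios 169 stayed within their interval and 12 moved out of it. The sign turned in 12 of the 181, of which 1 belongs to a ratio past 0.5 with an interval clear of 0: ampd-1 in intestine-like nuclei was at 0.21 with no ribosomal protein limit, when ribosomal-rich clusters joined the class, and at -2.13 with free RNA subtracted. That subtraction also gave -0.61 for adk-1 in intestine-like, 0.31 for adah-1 in hypodermis-like, -0.49 for adah-1 in muscle-like and -0.94 for ampd-1 in neuron-like nuclei. adk-1 in hypodermis-like nuclei reached 2.06 when clusters needed a marker score of at least 1. The setting without the his-40 cluster was chosen after its adk-1 level had been seen. Without a CPM minimum and with at least 10 UMIs over both libraries, 38.3% of genes were at least 0.5 higher in germline-like nuclei of ent-1KO;ent-2KD than in ctrl. No paired analysis was possible because each condition has 1 library. Depth limits the small classes most: in pharynx-like, sperm-like and sheath-like nuclei the ctrl library held 4 to 85 member UMIs per gene.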

Other observations

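The tags of ent-2, the transporter gene targeted by RNAi, were not lower in every tissue of ent-1KO;ent-2KD. In the gonad sheath and spermatheca-like nuclei, where ctrl had its highest ent-2 level of the 12 groups, ent-2 had 22.4 (15.2 to 31.8) CPM in ent-1KO;ent-2KD, 155 (124 to 192) CPM in ent-1KO and 93.8 (71.0 to 121.5) CPM in ent-2KO, against 249.7 (206 to 299) CPM in ctrl. In muscle-like nuclei it had 39.5 (32.4 to 47.7) CPM in ent-1KO;ent-2KD, 97.9 (78.6 to 120.4) CPM in ent-1KO and 65.5 (48.9 to 85.9) CPM in ent-2KO, against 89.5 (66.7 to 118) CPM in ctrl. In both groups the ent-2 level in CPM was thus lower in ent-1KO;ent-2KD than in any other library. In ribosomal-rich nuclei ent-2 had 40.3 (32.2 to 49.8) CPM in ent-1KO;ent-2KD, 25.5 (19.5 to 32.8) CPM in ent-1KO and 4.44 (1.21 to 11.4) CPM in ent-2KO, against 35.8 (25.8 to 48.4) CPM in ctrl, and in pharynx-like nuclei it had 127 (94.3 to 166) CPM in ent-1KO;ent-2KD, 16.6 (3.42 to 48.4) CPM in ent-1KO and 5.62 (0.142 to 31.3) CPM in ent-2KO, against 14.3 (1.74 to 51.8) CPM in ctrl, from 51, 3, 1 and 2 UMIs. The source of the tags in pharynx-like nuclei of ent-1KO;ent-2KD was not examined.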
